A study of Mus musculus with 6 samples.

Results

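Cells that are stressed or dying release ATP, and regulatory T cells (Tregs), the CD4+ T cells that express Foxp3 and restrain other T cells, carry enzymes that turn it into adenosine. The ectonucleotidase CD39, encoded by Entpd1, removes phosphates from ATP and ADP to leave AMP, and the ectonucleotidase CD73, encoded by Nt5e, turns AMP into adenosine. Adenosine acts on the G protein-coupled adenosine receptors encoded by Adora2a and Adora2b, which raise cAMP in the responding cell, and it is removed by adenosine deaminase (Ada) and adenosine kinase (Adk). ATP that is not broken down opens the ion channels P2X7 and P2X4 (P2rx7 and P2rx4), and CD26 (Dpp4) is a surface peptidase that in humans holds adenosine deaminase at the cell surface. These 9 genes were named as the enzymes and receptors of this pathway and were matched by symbol to the rows of a count table with 13709 rows. Of the 9 genes, 8 were matched and Adora2b was not analysed here.

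The 8 genes were compared between Tregs with and without the zinc finger protein Zfp335. Sorted CD4+YFP+CD25+ Tregs of C57BL/6 mice aged 2 weeks were used for bulk RNA-Seq, with 3 WT samples from Foxp3Cre littermates and 3 KO samples from Foxp3Cre Zfp335fl/fl mice. Both genotypes make YFP and Cre recombinase from the Foxp3 locus, so the floxed gene is deleted in cells that express Foxp3 and the sort gate follows the same locus. KO mice develop autoimmune inflammation, which the study described mainly in mice older than these. Their Tregs may therefore also have come from an inflamed host, which was not measured here. The labels name both lymph nodes and spleen as the source, and whether a sample came from 1 mouse or several was not stated, so that p-values measure only the spread between these samples. Levels are in CPM, which are counts scaled to the size of each library. Each sample held 32032631 to 40728419 counts, and the lowest single count of any of the 8 genes was 257. A gene counts as called where genotypes differed by over 1.5-fold with a p below 0.05 and an adjusted p below 0.1.

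Zfp335 lay between 94.3 and 103 CPM in WT and between 37.0 and 40.2 CPM in KO, in the direction of the labels. All 6 Treg markers examined, Foxp3, Il2ra, Ctla4, Ikzf2, Cd4 and Cd3e, were expressed at 317 CPM or more in every sample, and Foxp3 and Ikzf2 were called lower in KO. In order of replicate number, Foxp3 was 738, 642 and 1190 CPM in WT and 460, 472 and 463 CPM in KO. It overlaps Ppp1r3f and Ccdc22, and the study found Foxp3 protein unchanged at this age. WT replicate 3 stood apart from the other samples, at -41.5 on the second principal component against 19.3 and 22.7 for WT replicates 1 and 2, and it was the highest or the lowest WT sample for all 8 genes. The fold changes of the 8 genes and of the called genes named from the wider lists are therefore given with and without it. Markers of other cells moved with genotype. The summed level of 6 monocyte and macrophage markers was 16.7 to 28 CPM in WT and 48.0 to 55.8 CPM in KO (5 of 6 called higher), and that of the 3 neutrophil markers measured was 0.0543 to 0.578 and 4.51 to 7.25 CPM (3 of 3 called higher), with S100a8 and S100a9 listed at 0 in every WT sample. The 6 cell cycle genes summed to 585 to 1085 CPM in WT and 2937 to 3084 CPM in KO (6 of 6 called higher). The summed levels were 18.0 to 20.1 and 12.1 to 12.6 CPM for 5 B cell markers, with 1 called lower. They were 0.751 to 1.96 and 6.95 to 10.4 CPM for 4 dendritic cell markers. In KO most of this sum came from Itgax, the 1 called higher (means of 0.436 and 7.03 CPM in WT and KO). Flt3, Xcr1 and Siglech were not called. Cd8a and Cd8b1 summed to 9.32 to 13.2 CPM in WT samples and 12 to 12.7 CPM in KO samples, mostly from Cd8b1, which was not called, while Cd8a was called higher (means of 1.86 and 3.71 CPM). The 2 NK cell genes summed to 1.71 to 2.58 and 3.39 to 5.05 CPM, with Klrb1c called higher (2.11-fold). The 4 stromal and endothelial genes summed to 194 to 208 and 137 to 146 CPM, nearly all from Pecam1, and Col1a2 was called lower (23.8% of WT). Pecam1 was not called (means of 197 and 137 CPM in WT and KO). Cdh5 (0.349 and 0.476 CPM) and Col1a1 (2.59 and 2.42 CPM) were low in both genotypes and not called. Which cells held the Pecam1 reads was not tested. The 3 erythroid genes summed to 6.13 to 25.8 and 8.9 to 15.4 CPM, and edgeR called 0 of them, with 0 at an unadjusted p below 0.05. The part of these cells and of cell division in the results below was not tested.

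The start regions of the genes on which the results turn are shown first, because P2rx7 and P2rx4 are neighbors on chromosome 5 that were both lower in KO, while Entpd1 was higher. The gap between the 2 channel genes is 16111 bases, they lie on the same strand, and 1 annotated noncoding gene, not tested here, lies between them. The sequences are the 250 bases before RefSeq starts (GRCm38.p6), each on the plus strand and 5′ to 3′. They are P2rx4 at chr5:122707294-122707543, the first start of P2rx7 at chr5:122643677-122643926, and the second start of Entpd1 at chr19:40659520-40659769. Capitals mark TGACG, the CREB core, or TAAACA, a forkhead core, on either strand, where the reverse complements read CGTCA and TGTTTA.
P2rx4: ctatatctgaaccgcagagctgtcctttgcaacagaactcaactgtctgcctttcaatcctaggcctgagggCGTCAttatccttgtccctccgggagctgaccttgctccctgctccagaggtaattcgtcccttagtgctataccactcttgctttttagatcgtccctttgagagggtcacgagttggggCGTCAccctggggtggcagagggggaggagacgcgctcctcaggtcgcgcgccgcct
P2rx7: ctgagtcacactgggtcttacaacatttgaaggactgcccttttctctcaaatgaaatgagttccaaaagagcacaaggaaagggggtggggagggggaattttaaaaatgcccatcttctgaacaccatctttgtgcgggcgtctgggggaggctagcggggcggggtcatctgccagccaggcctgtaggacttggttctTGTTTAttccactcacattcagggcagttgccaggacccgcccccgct
Entpd1: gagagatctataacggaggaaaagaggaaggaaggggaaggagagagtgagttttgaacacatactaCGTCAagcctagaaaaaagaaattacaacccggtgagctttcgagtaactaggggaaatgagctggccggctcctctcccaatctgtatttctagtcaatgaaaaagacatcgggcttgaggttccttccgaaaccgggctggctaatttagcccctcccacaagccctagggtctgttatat

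The P2rx4 window held the CREB core at 2 positions and the Entpd1 window held it once. The window of the first P2rx7 start held a forkhead core, and it held no CREB core. Over all 32851 RefSeq windows of this length, 17.8% held TGACG and 12% held TAAACA on either strand. Neither ACGTG, the hypoxia response core (16.6% of windows), nor TGTGGT, a Runx core (14%), was in the 3 windows shown. Of the windows not shown, that of the second start of P2rx7 held none of these 4 motifs. The same was true of Ada, Dpp4 and the second start of Adk. The first starts of Entpd1 and of Adk, a gene that was not called, each held TGACG once. The window of Nt5e had 72.0% GC and 21 CpG, against a median of 52.4% and 6 over all windows, and none of the 4 motifs. It lies in an annotated exon and is not printed, and Adora2a had no match in the RefSeq table. A match describes these letters and is not a measured binding site.

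The 2 enzymes that make adenosine moved in opposite directions. Entpd1 was 2.01-fold higher in KO Tregs, whereas Nt5e retained 19.2% of its WT level. Both differences were larger than the spread between replicates, and Nt5e had the lowest fitted fold change of the 8 genes.

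Entpd1 lies on chromosome 19 at 40612366 to 40741602 on the plus strand (GRCm38, the build that mm10 denotes), with up to 10 exons, and the processed pseudogenes Gm16027 and Gm8783 lie within it. In order of replicate number, the WT samples held 28.4, 30.3 and 35.8 CPM and the KO samples 63.4, 64.7 and 61.7 CPM. Every KO sample was above every WT sample, and the KO samples lay close together. The mean rose from 31.5 ± 3.86 to 63.3 ± 1.5 CPM (SD, n = 3 each), with a log2 fold change of 1.01 (SE 0.10, 95% interval 0.78 to 1.24, edgeR adjusted p 0.000295). Leaving out WT replicate 3 gave 1.11 (edgeR adjusted p 1.35e-08). CD39 is also made by myeloid cells, whose markers were higher in KO as given above, and their part in the Entpd1 level was not tested.

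Nt5e lies on chromosome 9 at 88327197 to 88372092 on the plus strand and has 9 exons. It was 339, 351 and 384 CPM in the WT samples and 73.8, 66.4 and 65.6 CPM in the KO samples. The lowest WT sample was several times the highest KO sample. The mean fell from 358 ± 23.3 to 68.6 ± 4.53 CPM (SD, n = 3 each), which is 5.22-fold lower (log2 fold change -2.38, SE 0.08, 95% interval -2.58 to -2.19, edgeR adjusted p 4.29e-06). The value was -2.33 without WT replicate 3. With each gene's level divided by the median length of its coding transcripts, Nt5e stood at the 90.2 percentile of 12937 genes in WT. It stood at the 57.5 percentile in KO. The study showed Nt5e among the Treg genes that differ in these samples, so its fall is not independent evidence of that list. In heterozygous females free of inflammation, the study compared relative mRNA levels and found most Treg and helper T cell signature genes nearly equal between genotypes. Its text does not say whether Nt5e was among them. The study attributed the loss of the signature to inflammation, which was not tested here. In bulk samples, fewer cells that express a gene and less RNA per cell cannot be told apart.

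**Figure D1:**
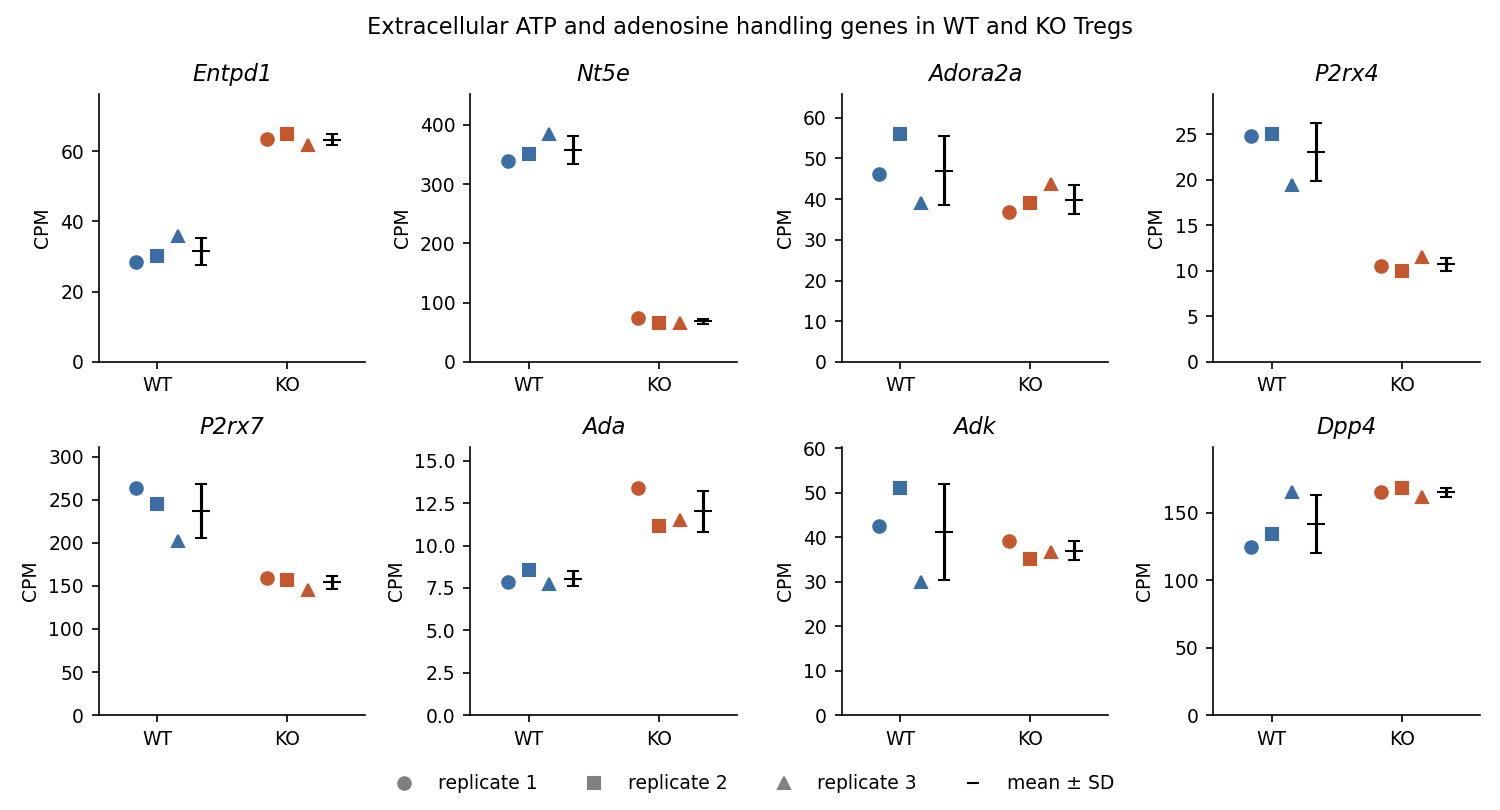
CPM of the 8 genes in each WT and KO sample, one panel per gene with its own vertical axis from 0, symbols for replicates, and the mean ± SD (n = 3) beside each group. Nt5e drops from 339 to 384 CPM in WT to 65.6 to 73.8 CPM in KO while Entpd1 rises from 28.4 to 35.8 to 61.7 to 64.7 CPM, and the groups overlap for Adora2a, Adk and Dpp4.

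The balance of the 2 enzymes was also taken within each sample, which is free of library scaling. With each level divided by the longest coding transcript, the ratio of Nt5e to Entpd1 was 12.6, 12.3 and 11.3 in WT and 1.23, 1.08 and 1.12 in KO. The mean ratio was 12.1 ± 0.664 in WT and 1.15 ± 0.0759 in KO (SD, n = 3 each), so that the WT samples held far more Nt5e than Entpd1 and the KO samples held similar levels. The log2 difference was -3.40 for any choice of length, and the exact two-sided permutation test gave p = 0.1, the smallest that 3 samples against 3 allow. Which enzyme was the more abundant in KO depended on the length, since with the median coding transcript the mean ratio was 4.70 in WT and 0.446 in KO.

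**Figure D2:**
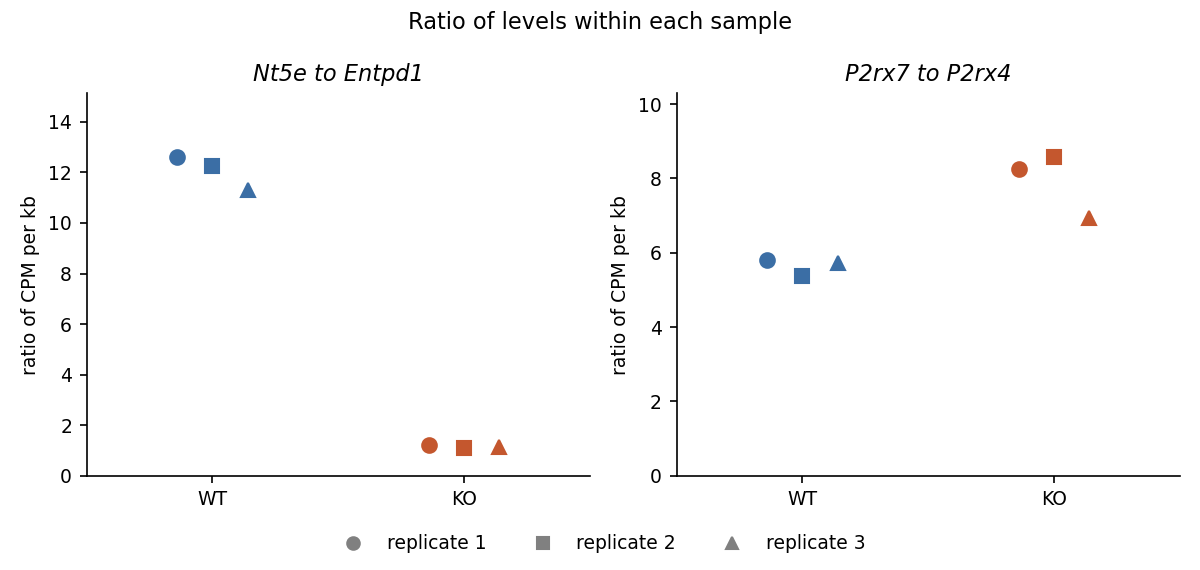
Ratio of Nt5e to Entpd1 and of P2rx7 to P2rx4 in each sample, from CPM per kb of the longest coding transcript, with linear axes from 0 and a symbol for each replicate. The first ratio is 11.3 to 12.6 in WT and 1.08 to 1.23 in KO, and the second is 5.37 to 5.81 in WT and 6.93 to 8.57 in KO.

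Both ATP-gated channels were lower in KO, P2rx4 by more than P2rx7. P2rx4, on chromosome 5 at 122707544 to 122729738 on the plus strand with up to 12 exons, was 24.9, 25.0 and 19.4 CPM in WT and 10.6, 10 and 11.5 CPM in KO. WT replicate 3 was the lowest of its group and still stood above every KO sample. The mean fell from 23.1 ± 3.19 to 10.7 ± 0.761 CPM (SD, n = 3 each), 46.4% of WT, with a log2 fold change of -1.11 (SE 0.13, 95% interval -1.42 to -0.80, edgeR adjusted p 0.00068). It was -1.22 without WT replicate 3.

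P2rx7 encodes the channel that can trigger death of T cells when extracellular ATP is high. It lies on chromosome 5 at 122643911 to 122691432 on the plus strand, with up to 13 exons, and was 264, 245 and 203 CPM in WT and 160, 157 and 146 CPM in KO. The groups did not overlap, and WT replicate 3 was again the WT sample nearest to KO. The mean fell from 237 ± 31.4 to 154 ± 7.31 CPM (SD, n = 3 each), 64.9% of WT, with a log2 fold change of -0.62 (SE 0.10, 95% interval -0.86 to -0.38, edgeR adjusted p 0.00264). Leaving out WT replicate 3 gave -0.73. The call of P2rx7 rested on the 1.5-fold cutoff. It was lost without WT replicate 1 (log2 fold change -0.54, edgeR adjusted p 0.00809) and without KO replicate 3 (-0.58, edgeR adjusted p 0.0184), and when the fold change was tested against 1.5 with glmTreat (adjusted p 0.643).

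The ratio of P2rx7 to P2rx4, per longest coding transcript, was 5.81, 5.37 and 5.71 in WT and 8.24, 8.57 and 6.93 in KO. Every KO sample was above every WT sample, with means of 5.63 ± 0.233 and 7.91 ± 0.871 (SD, n = 3 each). The log2 difference was 0.49, and the exact two-sided permutation p was 0.1, again the smallest possible.

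Adora2a, the adenosine receptor of the pathway, showed no difference that passed the test. It lies on chromosome 10 at 75316877 to 75334784 on the plus strand and was 46.1, 55.9 and 39.0 CPM in WT and 36.9, 39.1 and 43.8 CPM in KO. The groups overlapped, since WT replicate 3 lay among the KO samples. The means were 47.0 ± 8.48 and 39.9 ± 3.54 CPM (SD, n = 3 each), and the log2 fold change of -0.24 had a 95% interval of -0.56 to 0.08 (edgeR adjusted p 0.216). Without WT replicate 3 it was -0.36 with an edgeR adjusted p of 0.00584, still under the 1.5-fold cutoff.

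Of the 2 enzymes that remove adenosine, Ada had a higher mean in KO by just under the fold cutoff, and Adk overlapped between genotypes. Ada deaminates adenosine to inosine, and its gene lies on chromosome 2 at 163726584 to 163750239 on the minus strand. It had the lowest CPM of the 8 genes in WT, but not in KO, at 7.85, 8.56 and 7.72 CPM in WT and 13.4, 11.1 and 11.5 CPM in KO. Every KO sample was above every WT sample, and the means were 8.04 ± 0.449 and 12 ± 1.22 CPM (SD, n = 3 each). The log2 fold change was 0.58 (SE 0.14, 95% interval 0.26 to 0.89, edgeR adjusted p 0.0120), which passed both p cutoffs but not the 1.5-fold cutoff. Ada was called in 7 of 14 other settings, among them DESeq2 (log2 fold change 0.60, adjusted p 0.00152), and it was not called without WT replicate 3 (0.55, edgeR adjusted p 0.00548).

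Adk phosphorylates adenosine back to AMP inside the cell. It lies on chromosome 14 at 21052574 to 21448569 on the plus strand and was 42.6, 51.1 and 29.8 CPM in WT and 39.2, 35.0 and 36.7 CPM in KO. All KO samples lay within the range of the WT samples. The log2 fold change was -0.16 (95% interval -0.57 to 0.26, edgeR adjusted p 0.532). It was -0.35 (edgeR adjusted p 0.00470) without WT replicate 3 and 0.02 without WT replicate 2, so its direction depended on single WT samples.

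Dpp4 lies on chromosome 2 at 62330073 to 62412231 on the minus strand, with 26 exons, and an antisense gene, Gm13561, overlaps it. Since the use of strand in counting was not stated, reads of the 2 genes cannot be told apart. Dpp4 was 124, 135 and 166 CPM in WT and 166, 169 and 162 CPM in KO. WT replicate 3 lay among the KO samples and the other two WT samples lay below them. The means were 142 ± 21.6 and 165 ± 3.27 CPM (SD, n = 3 each), with a log2 fold change of 0.22 (95% interval -0.02 to 0.47, edgeR adjusted p 0.136). Without WT replicate 3 it was 0.35 (edgeR adjusted p 0.000179), still under the 1.5-fold cutoff. None of the 8 genes overlaps another protein-coding gene in the annotation.

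**Figure D3:**
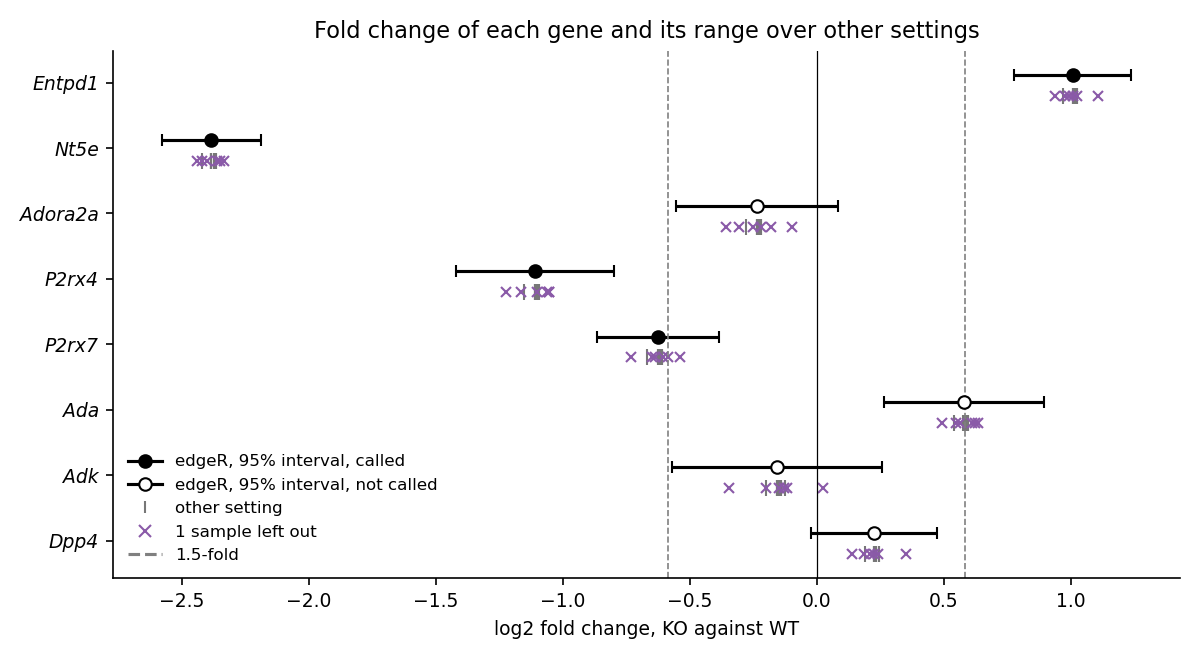
Log2 fold change of KO against WT for each gene, with the edgeR estimate and its 95% interval (filled where called) above the values under 14 other settings, of which 6 leave out 1 sample. Entpd1, Nt5e and P2rx4 lie beyond the dashed 1.5-fold lines in every setting, P2rx7 and Ada straddle a line, and Adk ranges from -0.35 to 0.02.

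Of the 8 genes, 4 were called, 1 higher and 3 lower in KO, against 24.4% of all 13594 genes tested. The genes were chosen with earlier results of these data known, so the shares given here describe them and do not test the list. Over all genes 11.9% were called higher and 12.5% lower. No overlap between groups was seen for 5 of the 8 genes (62.5%), against 53.8% of all genes, so this share was near the background. An edgeR adjusted p under 0.1, with no fold cutoff, was reached by 5 of 8 genes against 47.0% of all genes. Without WT replicate 3 it was reached by 8 of 8 against 57.9%, and 4 of 8 were called against 26.8%. The median log2 fold change was -0.20 over the 8 genes and -0.04 over all genes tested.

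The order of the levels within a genotype was read in CPM per kb of the longest coding transcript. In WT Nt5e was highest at 89.6 ± 5.82, followed by P2rx7 at 48.1 ± 6.37, and these 2 genes did not overlap. Dpp4 (26.9), Adk (22.7) and Adora2a (18.1) followed, each overlapping its neighbor in the order. P2rx4 (8.54) and Entpd1 (7.46) overlapped each other, and Ada was lowest at 4.76 ± 0.266. In KO Dpp4 (31.4) and P2rx7 (31.2) led and overlapped each other, followed by Adk (20.3). Nt5e (17.2), Adora2a (15.4) and Entpd1 (15.0) followed. Adora2a overlapped each of the other two, and Nt5e and Entpd1 did not overlap each other. All 3 were above Ada (7.12) and P2rx4 (3.96). With the median coding transcript P2rx7 led in both genotypes, at 128 in WT and 83.3 in KO, since annotated fragments shorten the median for several genes. Nt5e was then second in WT, where it overlapped Adora2a, and sixth of the 8 in KO.

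Other genes of purine handling were taken from lists by role, with 69 of 88 listed genes tested. Of these, 9 were called higher, 9 were called lower and 51 were not called, and their median log2 fold change was 0.08. The counts were 18 of 69 genes, beside the 24.4% called among all genes.

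Among 13 other surface and secretory nucleotide enzymes, 3 were called lower and 1 higher. Cd38, which consumes NAD, was 28.1, 25.6 and 16.9 CPM in WT and 8.16, 9.31 and 8 CPM in KO (log2 fold change -1.47, edgeR adjusted p 0.000988, and -1.67 without WT replicate 3). Art2b, which uses NAD to modify surface proteins of T cells including P2X7, was 54.8, 54.0 and 27.5 CPM in WT and 18.7, 19.2 and 20.3 CPM in KO (log2 fold change -1.23, edgeR adjusted p 0.00577, and -1.49 without WT replicate 3). Art2b has a close paralog, Art2a, so its reads are uncertain. Entpd6, a relative of Entpd1 that acts mainly on nucleoside diphosphates, fell from 43.2 ± 1.97 to 24.3 ± 0.444 CPM (SD, n = 3 each), a log2 fold change of -0.83, and of -0.80 without WT replicate 3. Entpd4, the member of this list with the highest level per length, was 92.1 ± 0.839 and 87.6 ± 4.76 CPM and was not called. The gene called higher was Bst1, which had 0.109 to 0.361 CPM in WT and 0.482 to 1.26 CPM in KO and overlaps Fbxl5. Its fitted log2 fold change was 2.24, and 2.99 without WT replicate 3. Its call was lost without KO replicate 1 (edgeR adjusted p 0.109) and with glmTreat (adjusted p 0.107), and it is named here after its values were seen.

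Among receptors, the only other P2X gene in the table, P2rx1, was not called, with means of 1.41 ± 0.480 and 1.65 ± 0.304 CPM in WT and KO (SD, n = 3 each). Of 6 P2Y genes 1 was called, P2ry12, at 0.0601 to 0.0815 CPM in WT and 0.539 to 0.684 CPM in KO, and it overlaps Med12l. Its WT values are at or under the floor of 3 counts, so no fold is given with or without WT replicate 3, and it is named after its values were seen. P2ry10 had the highest level per length of the P2Y genes and ranged from 79.8 to 204 CPM in WT and from 117 to 151 CPM in KO.

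Of the 5 nucleoside transporters tested, 3 were called lower. Slc28a2, which carries purine nucleosides into the cell with sodium, was 118, 116 and 237 CPM in WT and 65.6, 63.6 and 62.2 CPM in KO. WT replicate 3 was far above the other two, and the log2 fold change was -1.30 with it and -0.88 without it (edgeR adjusted p 0.00629 and 2.08e-08). Slc29a2 fell from 5.89 ± 0.181 to 3.54 ± 0.565 CPM, and Slc29a4 from 5.19 ± 2.05 to 1.97 ± 0.602 CPM (SD, n = 3 each). Their log2 fold changes were -0.73 and -1.39, and -0.74 and -1.69 without WT replicate 3. Both calls were lost with glmTreat (adjusted p 0.450 for Slc29a2 and 0.138 for Slc29a4). The equilibrative transporter Slc29a1, highest per length of this list, was 76.4 ± 11.5 and 71.2 ± 2.09 CPM and was not called. Among 5 genes of ATP release 1 was called. Slc17a9, which loads ATP into vesicles, was 80.8, 64.9 and 120 CPM in WT and 26.2, 25.7 and 26 CPM in KO (log2 fold change -1.77, edgeR adjusted p 0.000565), and without WT replicate 3 its log2 fold change was -1.50.

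Of 19 intracellular purine enzymes, 4 were called higher and 2 lower. Both called lower were AMP deaminases, which turn AMP into IMP. Ampd1 was 10.5, 9.56 and 4.63 CPM in WT and 2.08, 1.94 and 2.52 CPM in KO (log2 fold change -1.91, and -2.20 without WT replicate 3). Ampd3 fell from 25.0 ± 1.57 to 13.7 ± 1.56 CPM (SD, n = 3 each), a log2 fold change of -0.87, and of -0.90 without WT replicate 3. It overlaps Rnf141. Ahcy, which splits S-adenosylhomocysteine into adenosine and homocysteine, rose from 130 ± 10.7 to 260 ± 3.18 CPM (SD, n = 3 each, 2-fold, edgeR adjusted p 9.3e-05), with a log2 fold change of 0.96 without WT replicate 3. Its relative Ahcyl2 was 245, 223 and 472 CPM in WT and 501, 493 and 484 CPM in KO. WT replicate 3 was near the KO samples, and the call (log2 fold change 0.65, edgeR adjusted p 0.0820) was lost with DESeq2 (adjusted p 0.121), with glmTreat (adjusted p 0.740), and whenever any sample other than WT replicate 3 was left out. Without WT replicate 3 the log2 fold change was 1.07. Hprt, which salvages hypoxanthine and guanine, rose from 81.9 ± 7.56 to 126 ± 1.69 CPM (SD, n = 3 each), a call that was lost with library totals alone (log2 fold change 0.58), with glmTreat (adjusted p 0.598) and without WT replicate 3 (0.56). Pnp2 was 0.516 ± 0.274 and 1.51 ± 0.0903 CPM, and it overlaps its paralog Pnp, so its reads are uncertain, and its call was lost without KO replicate 2 (edgeR adjusted p 0.108) and with glmTreat (adjusted p 0.166). Its log2 fold change was 1.55 with and without WT replicate 3.

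Of 20 genes of the cAMP pathway, on which adenosine receptors act, 3 were called higher and 0 lower, and 17 were not called. Pde3b, a phosphodiesterase that breaks down cAMP, was 6.60, 7.98 and 9.37 CPM in WT and 72.5, 78.3 and 78.7 CPM in KO. It was 9.58-fold higher in KO, the highest fitted log2 fold change in these lists at 3.26 (SE 0.13, edgeR adjusted p 7.9e-06), and 3.39 without WT replicate 3. Pde4d, another phosphodiesterase, rose from 61.5 ± 10.8 to 107 ± 1.89 CPM, and Prkar2a, a regulatory subunit of protein kinase A, from 21.8 ± 1.69 to 45.5 ± 3.20 CPM (SD, n = 3 each). Their log2 fold changes were 0.80 and 1.06, and 0.95 and 1.01 without WT replicate 3, and the call of Pde4d was lost with glmTreat (adjusted p 0.120). Gnai2, an inhibitory G protein subunit and the list's highest level per length, was 660 ± 34.6 and 812 ± 23.2 CPM and did not reach the fold cutoff.

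**Figure D4:**
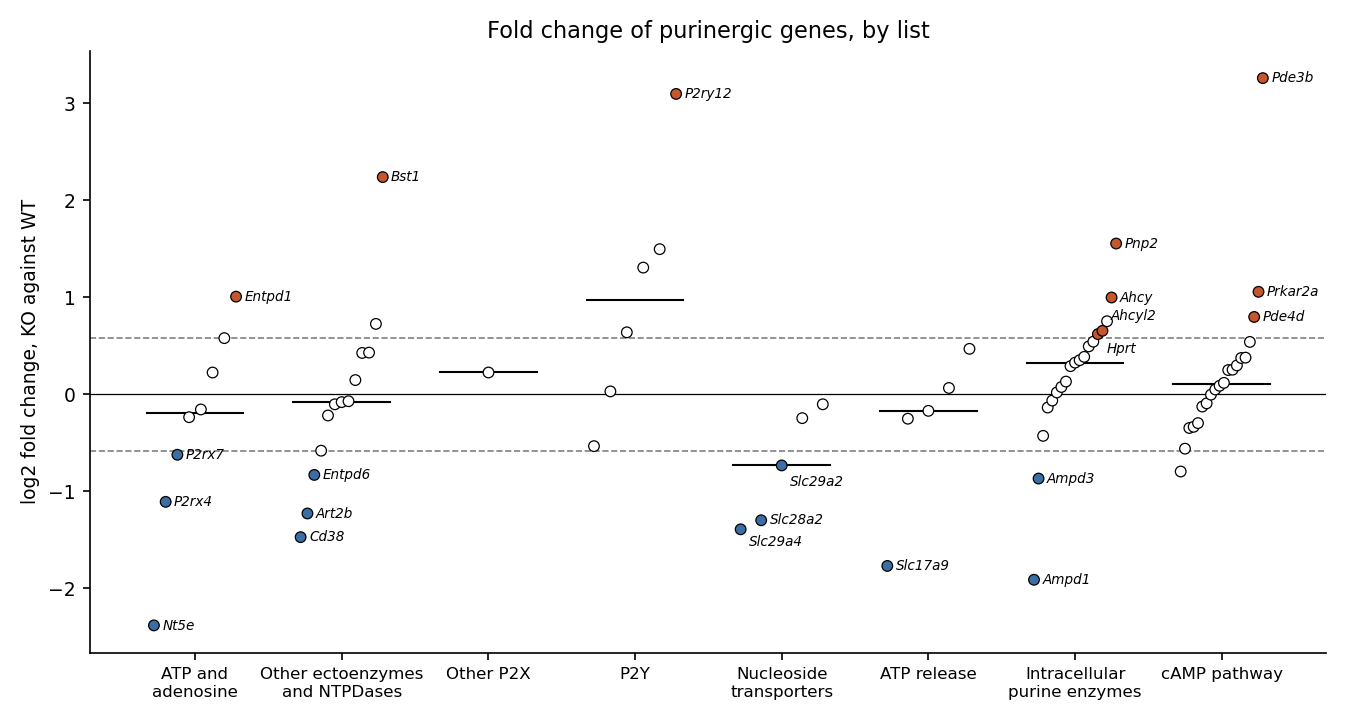
Log2 fold change of KO against WT (edgeR) for the 8 genes and for the 69 other purine handling genes tested, by list, with called genes filled and named, a bar at each list's median and dashed lines at 1.5-fold. Called genes lie on both sides of 0 in 3 of the 8 columns, and Pde3b at 3.26 and Nt5e at -2.38 are far from 0.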

How the data were processed

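The study's methods name SOAPnuke for read filtering, HISAT2 for alignment to mm10 (1 alignment kept per read) and StringTie for quantification. The authors deposited whole-number counts per gene, without normalization. How the whole numbers were made, the annotation and the use of strand were not stated. No row summed to fewer than 60 counts, so low genes had been removed before deposit.

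Counts were tested in R 4.3.3 with edgeR 4.0.16 (filterByExpr at a minimum count of 10, TMM scaling, quasi-likelihood test of genotype over 6 samples, p-values adjusted by Benjamini-Hochberg over 13594 genes). The SE was the log2 fold change divided by the square root of F. The cutoffs are the study's. Floors cover counting error only. Alternatives were DESeq2 1.42.0, scaling, filters, cutoffs, each sample left out, and a replicate block. Scripts were tested on simulated data.

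Positions, transcript lengths and overlaps came from GENCODE M21. The genes and lists were chosen with earlier results of these data known, and the longest transcript for levels after levels were seen. Genes outside the 9 were named when called at a mean of at least 1 CPM or highest per length in a list. Percentiles and the highest level per length in a list used the median coding transcript. Pde2a, listed in more than 1 row, was left out. Floxed Zfp335 and marker genes served as checks.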

Additional observations from a re-analysis of the deposited data

How the results depend on the processing

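Over 14 alternatives the calls of Entpd1 (log2 fold change 0.94 to 1.11), Nt5e (-2.44 to -2.33) and P2rx4 (-1.22 to -1.05) held. Adora2a (-0.36 to -0.10), Adk and Dpp4 (0.14 to 0.35) were called in none. Ada passed the 1.5-fold cutoff with DESeq2 (0.60), with RLE scaling (0.60) and with at least 10 counts in every sample (0.59), and it was called when the fold cutoff was dropped and the adjusted p set below 0.05 (0.58, edgeR adjusted p 0.0120). With 1 sample left out Ada ranged from 0.49 to 0.63, called without WT replicate 2, KO replicate 2 or KO replicate 3, and P2rx7 from -0.73 to -0.54. P2rx7 was not called by glmTreat (-0.62, adjusted p 0.643). With 1 sample left out Adk ranged from -0.35 to 0.024, and its sign turned without WT replicate 2 (0.024, edgeR adjusted p 0.923), the cause of which was not tested. Adjusted p over the 14 alternatives, glmTreat included, ranged from 4.08e-17 to 0.00665 for Entpd1, 2.45e-138 to 0.000177 for Nt5e, 4.78e-10 to 0.00995 for P2rx4, 1.15e-07 to 0.643 for P2rx7 and 0.00152 to 0.894 for Ada, and from 0.00584, 0.00470 and 0.000179 to 1 for Adora2a, Adk and Dpp4.

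The number of the 8 genes called ranged from 3 to 5. The 18 calls in the wider lists became 33 (19 higher, 14 lower) when the fold cutoff was dropped and the adjusted p set below 0.05, and 11 (4 higher, 7 lower) with glmTreat, and 16 to 18 in the other settings. Over all genes these 2 settings called 5244 and 1686 in place of 3318. With a sample left out 2867 to 3667 were called. The ratio of Nt5e to Entpd1 changed by -3.45 to -3.36 and that of P2rx7 to P2rx4 by 0.42 to 0.58 (log2) with 1 sample left out.

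The samples share replicate numbers, and the correlations of same-numbered samples' deviations were 0.06, 0.03 and -0.0042. With 3 samples per group and WT replicate 3 apart from the others, these values cannot show whether the numbers pair samples. With the replicate block as a term 4 of the 8 genes were called, and 3190 genes in all (Nt5e -2.38, Entpd1 1.01, P2rx7 -0.62, P2rx4 -1.10). The spread within WT (biological coefficient of variation 0.263, and 0.126 without replicate 3) against 0.0703 within KO limits what can be said of Adora2a, Adk and Dpp4. Depth limits genes near 0.0747 to 0.0913 CPM, the levels of 3 counts, and counting error also weighs on low genes above this. Bst1 and Pnp2 were not tested when at least 10 counts were required in every sample.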

Other observations

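Among 9839 genes averaging 5 CPM or more, the 3 whose profiles over the 6 samples were nearest to that of Nt5e, by the root mean square difference of log2 CPM centred on each gene's mean, were H2-Ob (0.0924), Lrig1 (0.115) and Sh3tc1 (0.125). H2-Ob, which encodes a chain of an MHC class II accessory protein, was 37.8, 38.6 and 48.5 CPM in WT and 8.70, 7.39 and 6.5 CPM in KO. Lrig1, a membrane protein that restrains growth factor receptors, was 266, 243 and 283 CPM in WT and 57.6, 56.7 and 57.3 CPM in KO. Sh3tc1 was 8.96, 8.22 and 10.9 CPM in WT and 1.37, 1.59 and 1.22 CPM in KO. They were chosen by this likeness, so their falls are a description.

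Ada lies on the chromosome of the deleted gene Zfp335, with 1141642 bases between them. That gap holds 63 annotated genes, 52 of them protein-coding. Of the 63, 20 were tested, and 3 of these (15.0%) were called, 2 higher and 1 lower, against 24.4% of all genes tested.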
